A study of Drosophila melanogaster with 34 samples.

Results

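The elements HeT-A, TART and TAHRE are the retrotransposons that form the chromosome ends of Drosophila melanogaster, and small RNAs mapping to them were described in sperm, testis and seminal vesicle. The members were all repeat rows of the deposited small RNA tables whose name starts with HETA, HET-A, TART or TAHRE. That rule found 4 elements, named HETA, TAHRE, TART and TART_B1, each counted on the sense and on the antisense strand, and therefore 8 rows of 84383 in both tables. No row was named HET-A, and TART_B1 is a TART entry of its own.

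Drosophila has no telomerase, and its chromosome ends are lengthened when these non-LTR elements copy their RNA onto the terminus by reverse transcription. HeT-A encodes a Gag protein and no reverse transcriptase, TART encodes Gag and a reverse transcriptase, and TAHRE resembles HeT-A but carries a reverse transcriptase too. In the germ line these elements are silenced by piRNAs, small RNAs bound by PIWI-clade Argonaute proteins. Piwi acts in the nucleus on transcription, while Aubergine (aub) acts in the cytoplasm, where it cleaves element transcripts guided by antisense piRNAs and thereby gives rise to new piRNAs of the sense strand. Antisense small RNA can pair with an element's transcript, and sense small RNA has the sequence of the transcript itself.

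The small RNA groups were sperm of males labelled with a piwi mutation (3 libraries), sperm of males labelled with an aub mutation (3), wild type (WT) sperm (3), PIWI immunoprecipitates (IP) of WT seminal vesicle after UV crosslinking (4), total small RNA of WT seminal vesicle (2 of 3 labelled samples) and WT testis in the groups T1, T2 and T3 (1 usable column each, for 2 labelled samples each). The labels give neither the alleles, their zygosity, the age of the males nor what T1, T2 and T3 stand for, and no source says whether libraries of a group came from separate animals, so p-values measure the spread between these libraries, which may be technical. Seminal vesicles store sperm, so their RNA can come from the vesicle wall, from stored sperm or from fluid. The tables give counts per element without read length, so piRNAs and other fragments cannot be told apart, and fewer cells of a type and less RNA per cell cannot be told apart either. How reads with several positions were counted is not given in the sources used here, and HeT-A, TAHRE and the TART entries share sequence, so single rows are uncertain.

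Libraries held 2363275 to 18728872 assigned counts, of which rRNA took 62.6 to 87.3%. Levels are given as CPM, counts scaled to library totals of 1e+06 assigned counts over both strands, and 3 counts corresponded to 0.160 to 1.27 CPM. The length of the rows is not given, so levels are compared between groups within a row and never between elements. Sense rows of the piwi and aub transcripts held 0 to 2 counts in every sperm library, too few to check the genotype labels. Of the markers of other tissues, the 14 testis miRNAs of the mir-959 and mir-972 clusters summed to 714 to 2144 CPM in testis, and mir-1, a muscle miRNA, reached 21672 to 50395 CPM in vesicle IP and 12441 to 21262 CPM in vesicle total RNA.

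**Figure D1:**
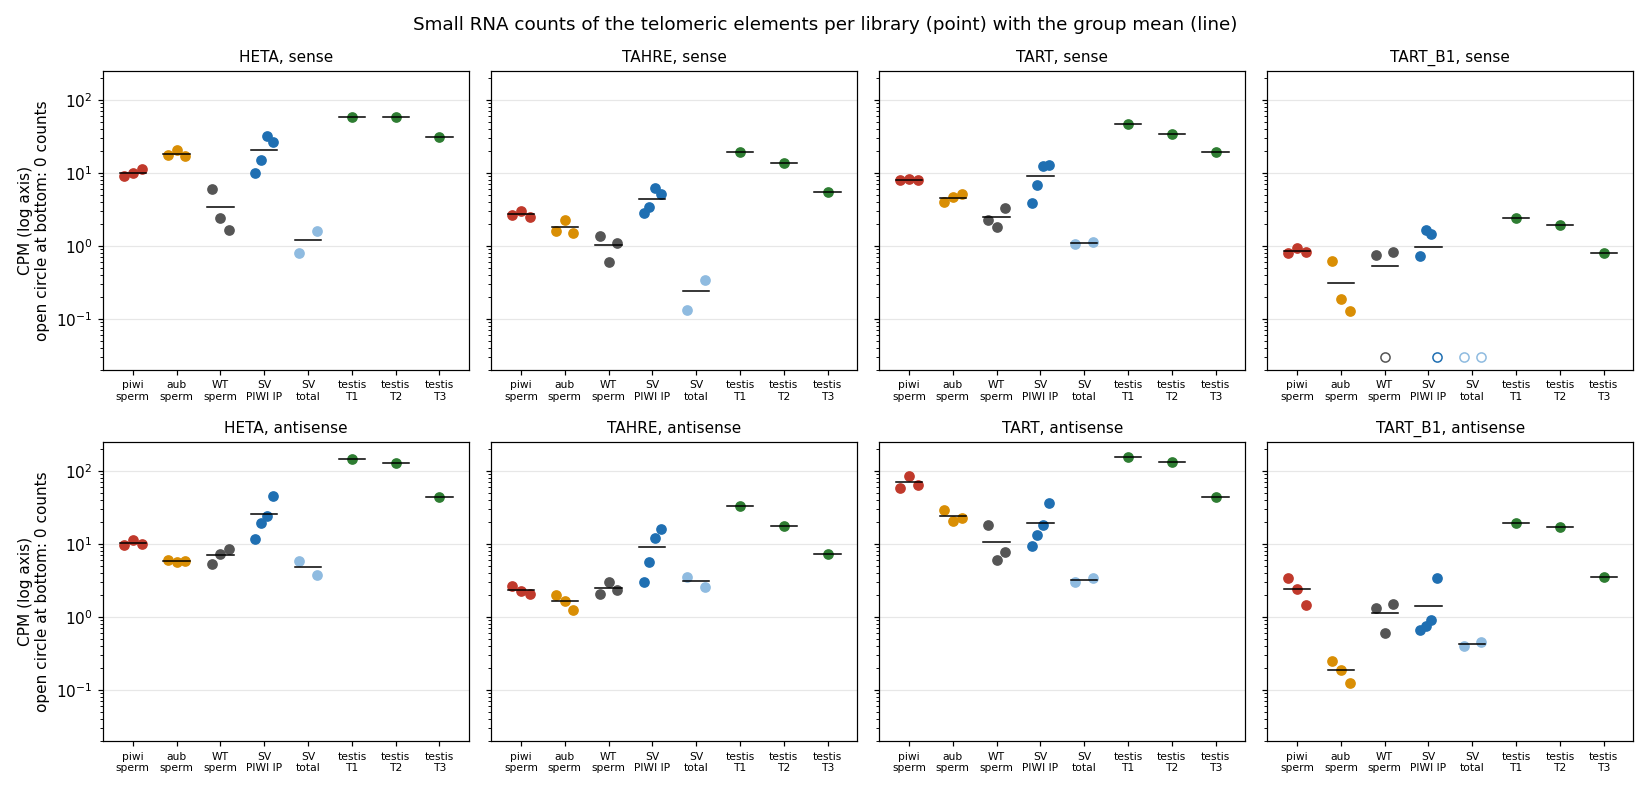
CPM (log axis) of each element and strand in every library (points), with the group mean (line); open circles at the bottom are libraries with 0 counts. TART antisense stood at 58.7 to 86.7 CPM in piwi sperm, above the aub and WT sperm libraries, and every element was highest in testis T1 on both strands.

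Telomeric small RNA of both strands summed to 94.8, 125 and 101 CPM in piwi mutant sperm and to 61.9, 55.5 and 53.8 CPM in aub mutant sperm, against 37.2, 21.8 and 27.0 CPM in WT sperm. The 3 genotypes did not overlap. Of all tested rows taken singly, 3.64% were higher in piwi and 12.9% in aub than in WT sperm without overlap. Likewise 3.17% were lower in aub than in piwi sperm. No such percentage was computed for sums of rows. TART antisense alone averaged 70.1 of 107 CPM in piwi sperm, 24.3 of 57.1 CPM in aub sperm and 10.6 of 28.7 CPM in WT sperm. The sum of all 4 elements was 42.4, 65.9, 108 and 146 CPM in the vesicle IP libraries, against 14.8 and 13.3 CPM in vesicle total RNA. It reached 485, 403 and 156 CPM in testis T1, T2 and T3. Among repeat counts other than rRNA, the telomeric elements took a share of 3.65 to 3.97% in piwi sperm and 2.08 to 2.46% in aub sperm, against 0.741 to 1.65% in WT sperm. That share was 0.511 to 0.837% in vesicle IP, against 1.16 to 1.45% in vesicle total RNA, and 0.477, 0.641 and 0.843% in T1, T2 and T3. The order of the groups therefore differed between both scales: testis was highest per assigned count and low per repeat count, and piwi sperm was highest per repeat count.

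**Figure D2:**
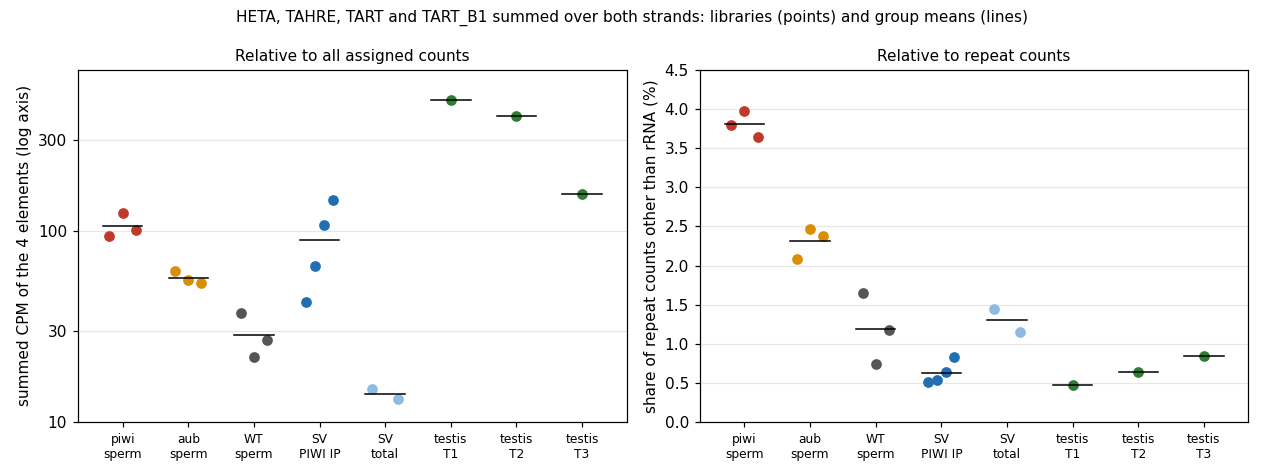
The 4 elements summed over both strands in every library (points) with group means (lines), as CPM on a log axis (left) and as a percentage of repeat counts other than rRNA (right). Testis T1 is highest on the left at 485 CPM and lowest on the right at 0.477%, while piwi sperm at 3.65 to 3.97% is highest on the right.

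TART, known for abundant antisense transcripts, rose on both strands in piwi mutant sperm. TART antisense counted 58.7, 86.7 and 65.0 CPM in piwi sperm, against 18.0, 6.05 and 7.68 CPM in WT sperm. TART sense counted 7.97, 8.17 and 8.04 CPM in piwi sperm, against 2.25, 1.82 and 3.29 CPM in WT sperm. On either strand the lowest piwi library was above the highest WT library. The log2 fold change of piwi against WT sperm was 2.60 ± 0.49 (SE) for TART antisense and 1.74 ± 0.32 for TART sense, with adjusted p-values of 0.0341 and 0.0214 (edgeR quasi-likelihood test, Benjamini-Hochberg over all 10804 rows tested, n = 3 libraries each). These 2 of 7 tested members compare with 0.342% of all tested rows called higher in piwi sperm. The antisense call was lost on leaving out any of 8 of the 9 sperm libraries (log2 fold change 2.26 to 3.58, adjusted p up to 0.126). It held without WT replicate 1, the WT library with the most TART antisense. WT replicate 1 stood apart from WT replicates 2 and 3, with a mean chi-square per row of 27.0 against each. Between WT replicates 2 and 3 it was 5.66, and between piwi libraries 12.7 to 22.0. Both mutant comparisons with WT sperm use this split group, and why it was split was not tested. Without WT replicate 1, HETA sense passed as well (2.63, adjusted p = 0.00188), though its log2 fold change ran from 1.03 to 2.63 over all leave-outs. The TART sense call was lost without piwi replicate 1, piwi replicate 3, WT replicate 2 or WT replicate 3 (1.48 to 1.87), and on scaling to repeat rows (1.49, adjusted p = 0.107). With only the piwi and WT libraries in the fit, neither strand passed (antisense 2.59, adjusted p = 0.0790; sense 1.74, adjusted p = 0.0628).

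No row of the other elements passed the test in piwi against WT sperm. HETA sense counted 9.03, 9.89 and 11.1 CPM in piwi sperm, against 5.99, 2.42 and 1.64 CPM in WT sperm, and TAHRE sense counted 2.66, 2.99 and 2.47 CPM, against 1.35, 0.605 and 1.10 CPM. The WT values of TAHRE sense rest on 9, 2 and 8 counts. Both rows were without overlap between the genotypes, with log2 fold changes of 1.49 ± 0.52 and 1.35 ± 0.48, but neither passed the test (adjusted p = 0.272 and 0.258). HETA antisense had 9.56, 11.3 and 10.1 CPM in piwi sperm, against 5.39, 7.27 and 8.64 CPM in WT sperm, a log2 fold change of 0.63 ± 0.25 that did not pass (adjusted p = 0.335). TAHRE antisense had 2.66, 2.30 and 2.06 CPM in piwi sperm, against 2.10, 3.03 and 2.33 CPM in WT sperm, with overlapping libraries and a log2 fold change of 0.04 ± 0.42. TART_B1 antisense had 3.45, 2.42 and 1.44 CPM in piwi sperm, against 1.35, 0.605 and 1.51 CPM in WT sperm, and did not pass the test either (1.11 ± 0.57, adjusted p = 0.490). TART_B1 sense, with 18 counts over the piwi libraries and 11 over the WT libraries, fell below the filter on low counts and was not tested. In all, 5 of the 7 tested members were higher in piwi sperm without overlap, where 3.64% of all tested rows were. The median log2 fold change was 1.35 over the tested members, 0.50 over 42 rows of other non-LTR elements, 0.25 over 252 repeat rows and 0.01 over all rows tested. Among the other non-LTR elements, DOC antisense (1.71 ± 0.29, adjusted p = 0.0137) and LINEJ1_DM sense (1.38 ± 0.25, adjusted p = 0.0199) rose in piwi sperm, and I_DM sense fell by 2.43 ± 0.34 (adjusted p = 0.00546).

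In aub mutant sperm the highest log2 fold change among the members was that of the sense strand of HeT-A, the element without a reverse transcriptase. HETA sense counted 17.7, 20.2 and 17.2 CPM in aub sperm, against 5.99, 2.42 and 1.64 CPM in WT sperm, whereas HETA antisense counted 6.11, 5.59 and 5.95 CPM in aub sperm, against 5.39, 7.27 and 8.64 CPM in WT sperm. The sense libraries of the genotypes were far apart and the antisense libraries overlapped. None of the 7 tested members passed the test in aub against WT sperm (edgeR, adjusted p = 0.0677 for HETA sense at 2.12 ± 0.51 log2), where 0.907% of all rows were called higher and 0.935% lower, and 15.2% had an unadjusted p under 0.05. Unadjusted p-values of the members were under 0.05 for HETA sense (0.00169) and TART_B1 antisense (0.00248). HETA sense passed in 6 of 17 alternative fits, DESeq2 among them (adjusted p = 0.00704; range over the alternatives 1.1e-08 to 0.234), and DESeq2 called 2 members. Without WT replicate 1 the log2 fold change of HETA sense was 3.25 (adjusted p = 0.000214). Over all leave-outs it ran from 1.66 to 3.25, and among them it passed only without that library.

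TART in aub sperm lay between piwi and WT sperm. TART antisense had 29.7, 20.7 and 22.5 CPM and TART sense 3.99, 4.66 and 5.06 CPM in aub sperm, with log2 fold changes against WT sperm of 0.85 ± 0.47 and 0.66 ± 0.32 (adjusted p = 0.446 and 0.358). Leaving out WT replicate 1 brought TART antisense to 1.81 (adjusted p = 0.00604). Over all leave-outs its log2 fold change ran from 0.49 to 1.81, and it passed only without that library. TART_B1 antisense had 0.249, 0.186 and 0.127 CPM in aub sperm, from 5 counts in all, against 1.35, 0.605 and 1.51 CPM from 22 counts in WT sperm, with a log2 fold change of -2.79 ± 0.75 (adjusted p = 0.0820). TAHRE sense had 1.62, 2.24 and 1.52 CPM and TAHRE antisense 1.99, 1.68 and 1.27 CPM in aub sperm, without overlap with WT sperm on either strand but with log2 fold changes of 0.54 ± 0.48 and -0.72 ± 0.42 that did not pass (adjusted p = 0.666 and 0.452). The WT libraries held 19 counts of TAHRE sense in all. Of the tested members, 4 were higher and 2 lower in aub sperm without overlap, where 12.9% and 4.97% of all tested rows were. Other non-LTR elements had a median log2 fold change of -0.26 in aub sperm, against 0.54 over the members; R2_DM sense (5.15 ± 0.69, adjusted p = 0.00841) and LINEJ1_DM sense (1.74 ± 0.25, adjusted p = 0.00535) rose, and I_DM sense fell by 1.78 ± 0.32 (adjusted p = 0.0166). Both mutant comparisons share the WT libraries.

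**Figure D3:**
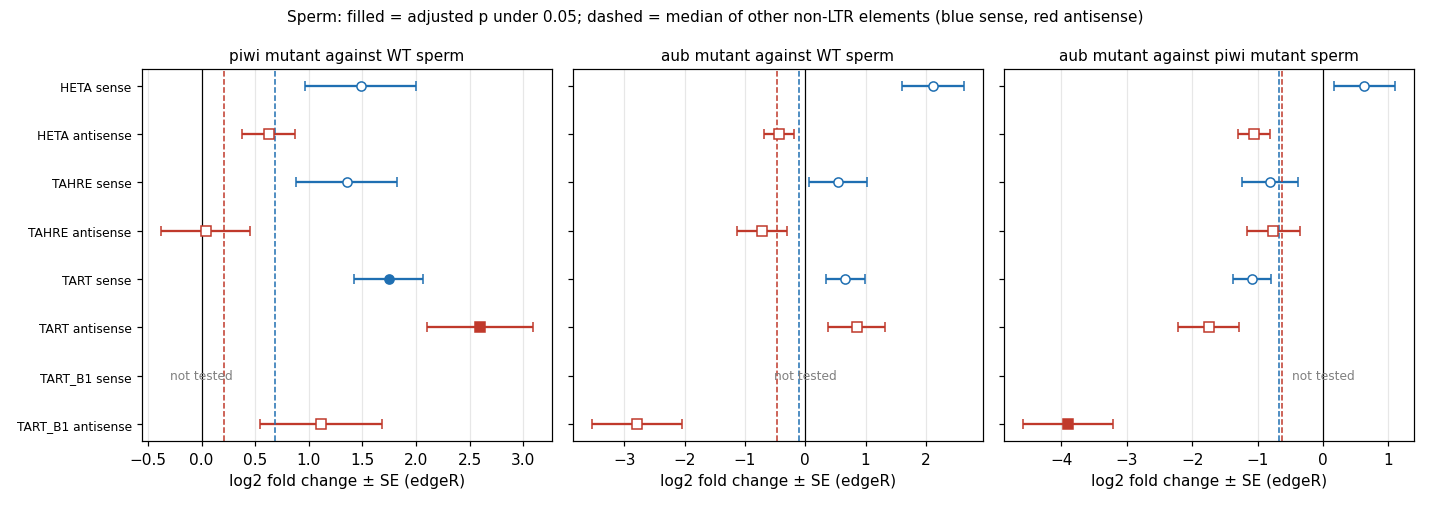
Log2 fold change ± SE of each member in the 3 sperm comparisons (edgeR), sense in blue circles and antisense in red squares; filled symbols passed the adjusted threshold and dashed lines are the medians of other non-LTR elements per strand. TART passed on both strands in piwi against WT sperm, and TART_B1 antisense passed in aub against piwi sperm.

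Set against each other, the mutants differed most, among the members, on the antisense strand of the TART entries. TART_B1 antisense was at 0.249, 0.186 and 0.127 CPM in aub sperm, against 3.45, 2.42 and 1.44 CPM in piwi sperm, and it fell by 3.90 ± 0.69 on the log2 scale (edgeR, adjusted p = 0.0264). This 1 of 7 tested members compares with 0.241% of all rows called lower in aub sperm, and the call rests on 5 counts in aub sperm and 54 in piwi sperm. It was lost without any of the 3 aub libraries or piwi replicate 1 (log2 fold change -3.26 to -4.21 over the leave-outs). TART antisense differed by -1.75 ± 0.47 (adjusted p = 0.178), HETA antisense by -1.06 ± 0.24 (adjusted p = 0.0883) and TART sense by -1.08 ± 0.29 (adjusted p = 0.160). Without WT replicate 1, which enters only the estimate of the spread here, TART antisense and HETA antisense passed (-1.77 and -1.08, adjusted p = 0.00210 and 0.0498). HETA sense went the other way at 0.63 ± 0.47 (adjusted p = 0.730), with every aub library above every piwi library. All 7 tested members were without overlap between the mutants, 6 lower and 1 higher in aub sperm, where 3.17% and 10.9% of all tested rows were. Repeats in general lay lower in aub than in piwi sperm, with a median log2 fold change of -0.57 over 252 repeat rows and -1.06 over the members. Among the other non-LTR elements, DOC antisense was called lower in aub sperm (-1.63 ± 0.28, edgeR, adjusted p = 0.0244).

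Some markers of other tissues moved with genotype. The 14 testis miRNAs summed to 15.4 to 85.0 CPM in piwi sperm and 51.3 to 123 CPM in aub sperm, against 5.54 to 31.2 CPM in WT sperm, where 2 of them were at 0; piwi and WT sperm overlapped and aub and WT sperm did not. Fat body and hemolymph transcripts summed to 19.8 to 54.4 CPM in piwi sperm and 12.6 to 47.3 CPM in aub sperm, against 76.3 to 150 CPM in WT sperm, without overlap. Accessory gland transcripts (25.6 to 407 CPM in piwi, 152 to 273 CPM in aub and 61.7 to 230 CPM in WT sperm) and mir-1 (363 to 2616 CPM in piwi, 216 to 432 CPM in aub and 311 to 915 CPM in WT sperm) overlapped between the mutants and WT. The part of these markers in the telomeric values was not tested. Small RNA of flam, a piRNA source of the somatic gonad, was at 27.2 to 41.9 CPM in piwi sperm and 25.9 to 39.7 CPM in aub sperm, against 26.4 to 35.1 CPM in WT sperm, and tj, a somatic gonad gene, was at no more than 0.623 CPM in any sperm library, against 15.5 to 94.9 CPM in testis.

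The share of antisense among the counts of an element does not depend on how libraries are scaled. For HETA it was 25.7, 21.7 and 25.7% in aub sperm and 51.4, 53.3 and 47.6% in piwi sperm, against 47.4, 75.0 and 84.0% in WT sperm. In aub sperm, then, sense small RNA of HeT-A outnumbered antisense in every library, from 183 to 277 counts each, and no library of the other genotypes was as low. Groups lower in aub sperm without overlap were found for 9.89% of 950 features against WT sperm and for 6.63% against piwi sperm. The exact 95% binomial intervals, which cover counting error only, ran from 17.0 to 32.6% over the aub libraries, while the lowest WT library had 35.8 to 59.2%. The mean difference between aub and WT sperm was -44.5 percentage points with an exact two-sided permutation p of 0.1, the smallest that 3 against 3 libraries allow. A fit chosen after seeing the data, limma on the log2 ratio of antisense to sense counts over all 950 features with both strands, gave -2.87 ± 0.45 for HETA in aub against WT sperm (adjusted p = 8.93e-06), where 2.32% of features were called lower. It passed without any of the 9 libraries in turn (-2.32 to -3.57, adjusted p up to 0.000852). Against piwi sperm the same ratio was -1.67 ± 0.45 (adjusted p = 0.0514), where 0.316% of features were called lower. It passed without any 1 of the WT libraries, which enter only the estimate of the spread here. Without any 1 of the aub or piwi libraries it did not pass (-1.57 to -1.77, limma adjusted p = 0.111 to 0.295). For piwi against WT sperm it was -1.20 ± 0.45 (adjusted p = 0.211), where 2.42% of features were called in either direction.

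TART stayed mostly antisense in every genotype. Its antisense share was 88.0, 91.4 and 89.0% in piwi sperm and 88.1, 81.6 and 81.7% in aub sperm, against 88.9, 76.9 and 70.0% in WT sperm, with overlapping libraries and log2 ratio differences against WT sperm of 1.15 ± 0.46 in piwi and 0.44 ± 0.46 in aub sperm (limma, adjusted p = 0.259 and 0.722). TAHRE had antisense shares of 50.0, 43.5 and 45.5% in piwi sperm and 55.2, 42.9 and 45.5% in aub sperm, against 60.9, 83.3 and 68.0% in WT sperm. Both mutants were below every WT library for TAHRE, as were 8.21% of features in piwi against WT sperm, yet these shares rest on 12 to 46 counts a library and neither ratio passed (limma, adjusted p = 0.296 and 0.280). TART_B1 had 2 to 7 counts over both strands in each aub library, which left its share between 28.6 and 50.0% with intervals from 1.26 to 98.7%; these shares did not overlap with 63.6% or more in piwi sperm and 64.3% or more in WT sperm.

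**Figure D4:**
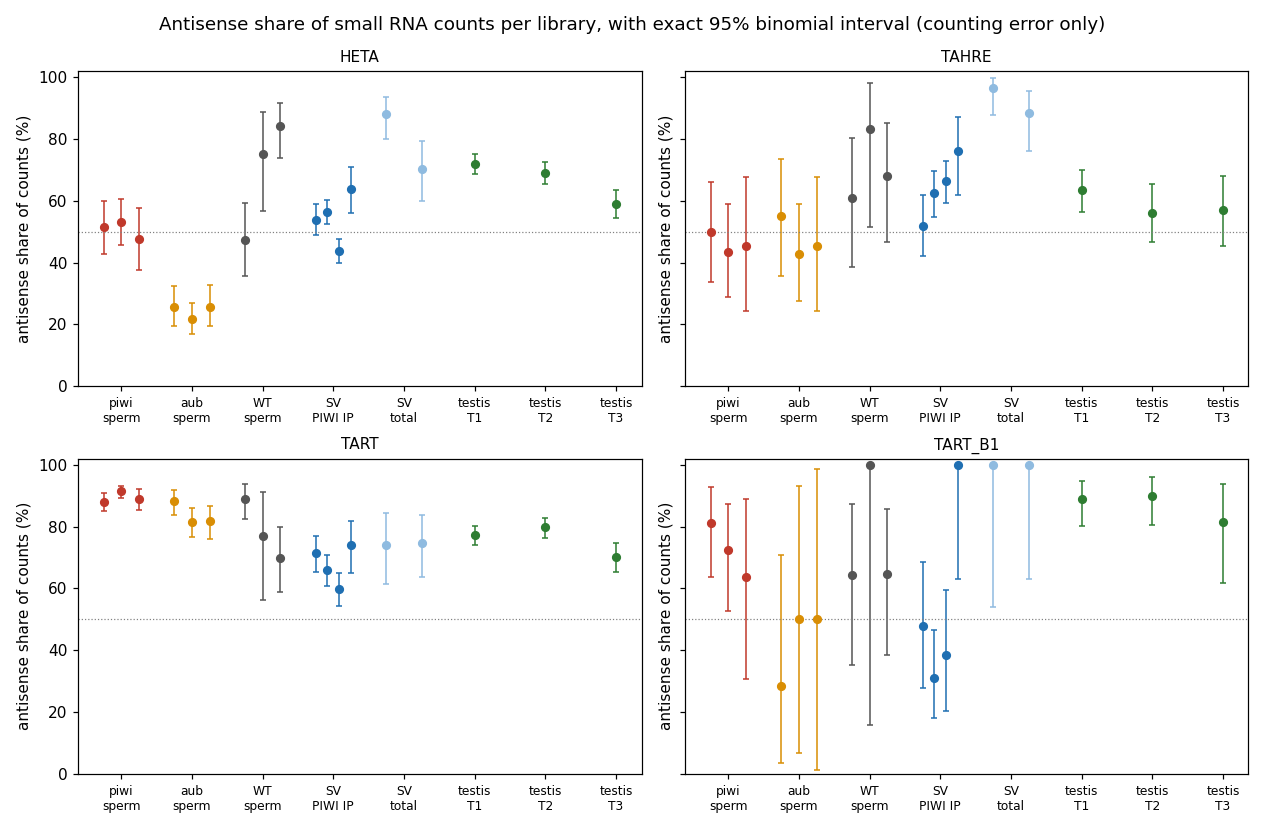
Antisense percentage of the small RNA counts of each element in every library, with the exact 95% binomial interval; the dotted line marks equal counts of both strands. HETA lies at 21.7 to 25.7% in aub sperm and at 47.4 to 84.0% in WT sperm, and TART lies at 59.7% or more in all libraries.

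In the seminal vesicle, the sense strands of HeT-A and TAHRE were called higher in PIWI IP than in total RNA with TMM scaling, a call that depended on the scaling. IP replicate 1 stood apart from the other IP libraries, with mean chi-squares per row of 60.2 to 83.9 against them and 10.2 to 15.7 among them, and fat body and hemolymph transcripts at 5283 CPM in it, against 327 to 391 CPM in the others. HETA sense counted 10.0, 15.0, 31.8 and 26.2 CPM in IP, against 0.796 and 1.60 CPM in total RNA, and TAHRE sense counted 2.83, 3.42, 6.10 and 5.08 CPM in IP, against 0.133 and 0.343 CPM in total RNA. The TAHRE sense values of total RNA rest on 2 and 6 counts. The lowest IP library exceeded the highest total library by several fold in both rows. Their log2 fold changes, after TMM scaling, were 1.99 ± 0.35 and 2.09 ± 0.53 (edgeR over 18666 rows, adjusted p = 0.00111 and 0.0128, n = 4 and 2 libraries). These 2 of 8 members compare with 8.41% of all rows called higher in IP and 9.99% called lower. Of 385 repeat rows tested, 185 were called higher and 8 lower, with a median log2 fold change of 1.39. Scaled to repeat rows, both calls were lost (HETA sense 0.71, adjusted p = 0.112; TAHRE sense 0.84, adjusted p = 0.215). TAHRE sense also lost its call without total replicate 1, and without IP replicate 1 the log2 fold changes were 2.11 for both rows (adjusted p = 0.00106 for HETA and 0.0239 for TAHRE). TART sense had 3.83, 6.89, 12.5 and 12.7 CPM in IP, against 1.06 and 1.14 CPM in total RNA, and did not pass (0.86 ± 0.36, adjusted p = 0.112). TART_B1 sense had 60 counts over 3 of the 4 IP libraries and 0 in both total libraries, which allows up to 0.199 and 0.172 CPM there.

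None of the antisense rows passed the test. HETA antisense had 11.7, 19.2, 24.6 and 46.1 CPM in IP, against 5.83 and 3.77 CPM in total RNA, and TART antisense had 9.55, 13.3, 18.5 and 36.0 CPM in IP, against 3.05 and 3.37 CPM in total RNA. TAHRE antisense had 3.05, 5.66, 12.02 and 16.1 CPM in IP, against 3.58 and 2.57 CPM in total RNA. Only the TAHRE row overlapped between the groups among these 3, and after TMM scaling the log2 fold changes were 0.20 ± 0.33, 0.41 ± 0.31 and -0.68 ± 0.38, and none passed (adjusted p = 0.716, 0.395 and 0.233). TART_B1 antisense, with 44 counts in IP and 14 in total RNA, had -0.67 ± 0.69 (adjusted p = 0.550). In plain CPM, 6 of 8 members were higher in IP without overlap, and so were 65.5% of all tested rows.

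The size and direction of these changes depended on the scaling. TMM factors were 1.02 to 2.10 in IP and 0.357 to 0.428 in total RNA. With library totals alone, a scaling added after seeing the data, 7 of 8 members were called higher in IP, where 62.3% of all rows were (HETA sense 4.08, HETA antisense 2.38, TAHRE antisense 1.52), but the median of all rows was then 2.08. Scaled to repeat rows, all 4 antisense members were called lower, where 49.1% of 17520 rows were (HETA -1.05, TAHRE -1.94, TART -0.86, TART_B1 -1.91), 0 were called higher, and the median of all rows was -1.42. The median log2 fold change with TMM factors was 0.63 over the members, also with TART_B1 sense at its lower bound of 1.79 (3 counts over both total libraries), and 2.00 over 55 rows of other non-LTR elements, of which 40 were called higher and 2 lower in IP. DOC sense (4.04 ± 0.27, adjusted p = 9.31e-07) and LINEJ1_DM sense (3.37 ± 0.27, adjusted p = 2.04e-06) rose among these, while R1_DM sense fell by 1.87 ± 0.24 (adjusted p = 8.54e-05) and R2_DM sense by 1.73 ± 0.48 (adjusted p = 0.0307).

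**Figure D5:**
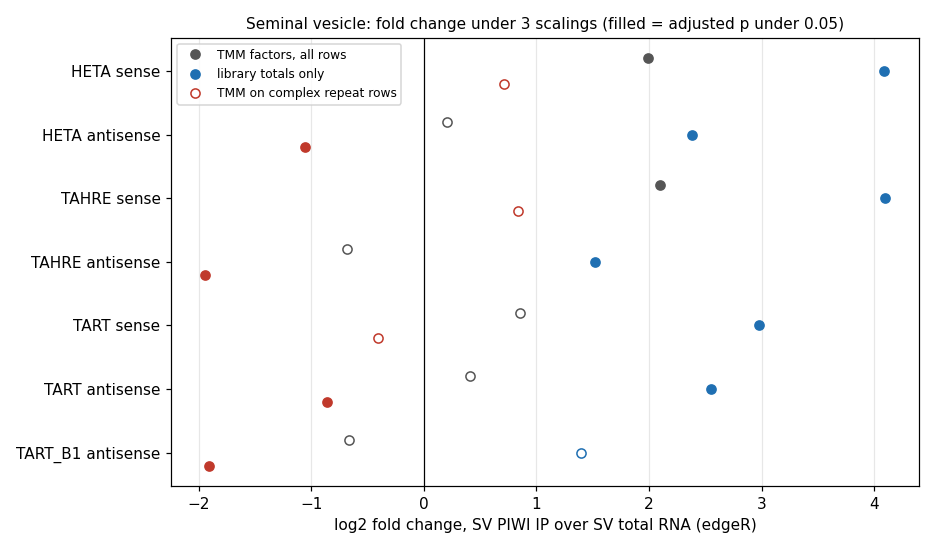
Log2 fold change of the members in seminal vesicle PIWI IP over total RNA under 3 scalings, filled where the adjusted p was under 0.05; TART_B1 sense is left out because total RNA held 0 counts. With TMM factors (grey) HETA sense and TAHRE sense passed at 1.99 and 2.09, and the antisense rows changed direction between the scalings.

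The strand balance of the vesicle libraries, free of scaling, differed for HeT-A and TAHRE. HETA was 53.8, 56.2, 43.6 and 63.7% antisense in IP, against 88.0 and 70.2% in total RNA, and TAHRE was 51.9, 62.4, 66.3 and 76.0% antisense in IP, against 96.4 and 88.2% in total RNA. The TAHRE shares of total RNA rest on 2 and 6 sense counts. Both elements were lower in IP without overlap, and the exact permutation p was 0.0667 for each, the smallest that 4 against 2 libraries allow. The log2 ratio of antisense to sense was -1.77 ± 0.39 for HETA and -2.77 ± 0.60 for TAHRE (limma, adjusted p = 0.00584 and 0.00455), where 2.00% of 2850 features were called lower. The HETA call was lost without IP replicate 3 or total replicate 1 (-0.97 to -2.57 over the leave-outs, adjusted p up to 0.312), and the TAHRE call without total replicate 1 (-1.95 to -3.59, up to 0.113). Without IP replicate 1 the ratios were -1.76 for HETA and -2.52 for TAHRE (adjusted p = 0.0457 and 0.0488). TART was 71.4, 66.0, 59.7 and 73.9% antisense in IP, against 74.2 and 74.7% in total RNA, also without overlap but by a narrow margin, with an exact permutation p of 0.133 and a ratio that did not pass (-0.44 ± 0.40, adjusted p = 0.660). In all, 3 of the 4 elements had a lower antisense share in IP without overlap, where 9.09% of features did. Testis miRNAs summed to 182 to 440 CPM in IP, against 64.0 to 72.9 CPM in total RNA, and accessory gland transcripts to 140 to 248 CPM in IP, against 22.0 to 25.7 CPM in total RNA. Small RNA of flam was at 53.3 to 90.1 CPM in IP, against 11.1 to 11.6 CPM in total RNA. Broadly expressed miRNAs rose too, with 14318 to 33820 CPM in IP, against 8878 to 10891 CPM in total RNA. Fat body and hemolymph transcripts overlapped, at 327 to 5283 CPM in IP and 99.5 to 610 CPM in total RNA. In plain CPM 65.5% of all tested rows were higher in IP without overlap. The part of these markers in the telomeric values was not tested.

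WT sperm held far less telomeric small RNA per assigned count than WT testis. HETA antisense had 5.39, 7.27 and 8.64 CPM in sperm, against 147, 127 and 44.5 CPM in testis T1, T2 and T3, and TART antisense had 18.0, 6.05 and 7.68 CPM in sperm, against 158, 134 and 44.5 CPM in testis. HETA sense had 5.99, 2.42 and 1.64 CPM in sperm, against 57.8, 57.5 and 31.0 CPM in testis. Every sperm library lay below every testis library in 7 of the 8 rows, where 31.2% of all tested rows did; the exception was TART_B1 sense. The same 7 rows were called lower in sperm, with log2 fold changes from -4.02 ± 0.47 (HETA antisense) to -2.99 ± 0.39 (TAHRE antisense) and adjusted p-values of 4.13e-05 to 0.00168 (edgeR, spread estimated from the 3 sperm libraries, each testis group having 1). Of all rows tested, 30.7% were called lower. Repeats in general were lower in sperm: the median was -3.45 over the members, -3.96 over 53 rows of other non-LTR elements and -4.23 over 360 repeat rows, with 312 of these called lower. Of the other non-LTR elements, HELENA_RT antisense (-6.12 ± 0.51, edgeR, adjusted p = 2.1e-05) and G6_DM antisense (-6.11 ± 0.56, adjusted p = 2.13e-05) were among the rows called lower. Scaled to repeat rows, all 8 members turned positive (0.23 to 2.61) and 2 were called higher, TART_B1 sense and TAHRE antisense (edgeR, adjusted p = 0.0102 and 0.0219), where 83.9% of 16088 rows were, while the median of all rows moved to 4.74.

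Within testis each group had 1 library and no test was possible. HETA antisense was at 147 CPM in T1, 127 CPM in T2 and 44.5 CPM in T3, and TART antisense at 158, 134 and 44.5 CPM. TAHRE sense was at 19.5, 13.7 and 5.48 CPM and TART sense at 46.5, 34.0 and 19.02 CPM in the same order. T3 was the lowest library for all 8 rows. The log2 ratio of T3 to T1 lay between -2.44 (TART_B1 antisense) and -0.90 (HETA sense), with a 95% counting interval of -1.94 to -1.52 for HETA antisense and of -1.19 to -0.62 for HETA sense. All repeat counts other than rRNA were at 101580, 62914 and 18507 CPM in T1, T2 and T3, and relative to them the T3 to T1 ratios turned positive for all 8 rows (0.021 to 1.55). The 95% counting intervals of these ratios spanned both directions for TART_B1 and TAHRE on both strands, such as -0.28 to 0.74 for TAHRE antisense. The antisense share of HETA was 71.8, 68.9 and 59.0%, with intervals of 68.5 to 75.0% in T1 and 54.4 to 63.5% in T3, and that of TART was 77.3, 79.7 and 70.1%. In WT sperm against testis the log2 antisense to sense ratio of none of the 4 elements passed (limma, adjusted p = 0.250 to 0.802), where 39.6% of 1075 features did.

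The order of mean levels was similar for both main antisense rows but not identical. HETA antisense ran from testis T1, T2 and T3 (147, 127 and 44.5 CPM) through vesicle IP (25.4 ± 14.8, SD, n = 4), piwi sperm (10.3 ± 0.88, n = 3), WT sperm (7.10 ± 1.63, n = 3) and aub sperm (5.88 ± 0.26, n = 3) to vesicle total RNA (4.80 ± 1.46, n = 2). Aub sperm overlapped with its neighbours on both sides. TART antisense ran from testis (158, 134 and 44.5 CPM for T1, T2 and T3), interrupted by piwi sperm (70.1 ± 14.7) above T3, through aub sperm (24.3 ± 4.73), vesicle IP (19.3 ± 11.7) and WT sperm (10.6 ± 6.47) to vesicle total RNA (3.21 ± 0.23). Vesicle IP overlapped with aub and with WT sperm, and piwi sperm did not overlap with any neighbour. Vesicle columns were counted on another feature list than sperm and testis, so their levels stand side by side only.

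Over the 12 sperm and testis libraries, the repeat rows whose log2 CPM followed HETA antisense most closely were NOMAD_I-int sense (Pearson r = 0.996), Copia1-I_DM antisense (0.992), PROTOP_B sense (0.990), NOMAD_LTR sense (0.990) and NOMAD_I-int antisense (0.990), among 295 candidates with a median of 0.956. All these libraries share the large gap between testis and sperm. Of the other 7 members, TAHRE antisense was at 0.977, above the median candidate, and the other 6 lay below it, from 0.754 (HETA sense) and 0.762 (TART antisense) to 0.949 (TAHRE sense). Over the 9 sperm libraries alone, HETA sense had r = -0.03 with HETA antisense, and the other members had 0.65 to 0.93.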

How the data were processed

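Small RNA was analysed in 18 libraries of 22 labelled small RNA samples; 12 embryo samples were not used here. The authors deposited whole-number counts per feature, 46612 rows for the sense strand and 37771 for the antisense strand. The submitters' processing notes list, without saying what each did, dm6, BDGP6, Subread 2.0.0, featureCounts, SAMtools 1.8, Bowtie 1.2.3 and Trim Galore 0.5.0; the handling of multiply mapped reads is not given in the sources used here. Per the labels' protocols, small RNA was size selected, 2S rRNA was blocked, and the reaction volume was smaller for testis than for sperm. Vesicle columns list 45290 sense and 34050 antisense features, and the other columns 42869 and 29556. On each strand 3 columns matched no sample and were not used. Sperm columns were matched by genotype and number; testis columns name the group only. All 16 pairs of replicates differed beyond sampling noise (mean chi-square per row at least 5.66).

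Both strands entered 1 fit in edgeR 4.0.16 (R 4.3.3), with the filterByExpr filter, TMM factors, the robust quasi-likelihood test and Benjamini-Hochberg adjustment over all rows at a threshold of 0.05. DESeq2 1.42.0 was an alternative. Strand ratios were fitted with limma 3.58.1 (0.5 added to each count, features with a mean of at least 10 counts and at least 1 on each strand). Sperm fits held all 9 sperm libraries. Printed CPM use library totals without TMM factors, and fold changes use TMM factors; their SE is the log2 fold change divided by the root of F. Intervals cover counting error only (exact binomial or Poisson, 95%). The fits were tested on simulated data. The planned testis test with replicates could not be run with 1 column a group. The members, the list of other non-LTR elements and the markers were chosen with earlier results of these data known. Of the non-LTR list, up to 2 rows per direction and comparison among those past the threshold are named in order of adjusted p, and the 5 repeat rows with the highest r to HETA antisense are named among rows with a mean of at least 10 counts.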

Additional observations from a re-analysis of the deposited data

Results flagged for a closer look

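TART_B1 antisense in the seminal vesicle PIWI IP stood at 3.39 CPM in replicate 4, far from 0.666, 0.748 and 0.897 CPM in the other 3 IP libraries. The gap to the nearest library took 0.915 of the range of the group. Replicate 4 was the shallowest library at 2363275 counts, and its value rests on 8 counts, where 3 counts correspond to 1.27 CPM. This was the only such library in 12 checks, and chance marks about 1 in 20 groups.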

How the results depend on the processing

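Numbers of called rows moved with the fit, and the cause was not tested. For piwi against WT sperm 2 members and 97 rows were called; these became 1 member scaled to repeat rows, 0 members and 61 rows with only 2 groups in the fit, 196 rows with DESeq2, 367 rows without a filter on low counts, and 0 to 3 members and 39 to 139 rows leaving out a library. For aub against WT sperm 0 members and 199 rows were called; these became 2 and 389 with DESeq2, 2 and 648 without a filter, 1 and 322 scaled to repeat rows, 1 member with library totals, and 0 to 2 members and 34 to 314 rows leaving out a library. For aub against piwi sperm 1 member and 56 rows were called; these became 3 and 144 with DESeq2, 2 and 320 without a filter, 2 and 103 with only 2 groups, 225 rows scaled to repeat rows, and 0 to 3 members and 14 to 138 rows leaving out a library. Rows called higher and lower numbered 98 and 101 for aub against WT sperm but 249 and 73 scaled to repeat rows, 37 and 60 for piwi against WT sperm but 31 and 95, and 30 and 26 for aub against piwi sperm but 208 and 17, or 50 and 20 with library totals; scaling to repeat rows put the median of all rows at 0.37, -0.20 and 0.57 in these comparisons, against 0.02, 0.01 and 0.01 in the main setting. TAHRE antisense in piwi against WT sperm, 0.04, was -0.19 scaled to repeat rows, -0.054 with library totals and -0.35 to 0.27 leaving out a library.

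With the replicate block, 2 members and 312 rows were called for aub against WT sperm, 2 members and 86 rows for aub against piwi sperm, and TAHRE antisense in piwi sperm was -0.014; in the vesicle, a block over replicates 1 and 2 gave 4 members and turned HETA antisense to -0.058. Sperm libraries of the same number had correlations of deviations of -0.069 to 0.161 over 9 pairs, with 5 above 0.1. As a hint from the data, 7 of the 9 sperm libraries had their highest correlation with a library of their own number. These values do not settle whether the numbers pair the libraries, and the main fits leave the numbers out. No paired analysis was possible because the testis columns carry no number, for WT sperm against testis.

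In vesicle IP against total RNA, 2 members and 3434 rows were called, against 4 and 8876 scaled to repeat rows, 7 and 11797 with library totals, and 1 to 3 and 1407 to 4729 leaving out a library. Rows called higher and lower numbered 1569 and 1865, but 281 and 8595 scaled to repeat rows and 11624 and 173 with library totals. Scaled to repeat rows, TART sense was -0.41, HETA antisense -1.05 and TART antisense -0.86; with library totals TART_B1 antisense was 1.40 and TAHRE antisense 1.52; HETA antisense ran from -0.080 to 0.80 leaving out a library. In WT sperm against testis, 7 members and 7844 rows were called, against 2 and 13992 scaled to repeat rows, 4254 rows with DESeq2, 4918 rows with testis as 1 group and 7 members in each fit that left out a library. Rows called higher and lower numbered 3635 and 4209, but 1148 and 3106 with DESeq2 and 13501 and 491 scaled to repeat rows, where the log2 fold change was 0.23 for HETA sense, 2.61 for TART_B1 sense, 0.60 for TAHRE sense, 0.37 for TART sense, 0.25 for HETA antisense, 0.90 for TART_B1 antisense, 1.25 for TAHRE antisense and 0.83 for TART antisense.

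The log2 ratio of T3 to T1, scaled to repeats other than rRNA, was 1.55 for HETA sense, 0.90 for TART_B1 sense, 0.63 for TAHRE sense, 1.17 for TART sense, 0.73 for HETA antisense, 0.021 for TART_B1 antisense, 0.24 for TAHRE antisense and 0.63 for TART antisense. Scaled to counts outside rRNA it was -0.19 for HETA sense, -1.12 for TAHRE sense, -0.58 for TART sense, -1.02 for HETA antisense, -1.73 for TART_B1 antisense, -1.51 for TAHRE antisense and -1.12 for TART antisense. Of the 28 pairs of groups, scaling to repeats other than rRNA put 17 (HETA sense), 16 (TART_B1 sense), 19 (TAHRE sense), 19 (TART sense), 22 (HETA antisense), 13 (TART_B1 antisense), 20 (TAHRE antisense) and 16 (TART antisense) in another order of mean level; scaling to counts outside rRNA moved 2 pairs each for HETA and TART_B1 on both strands and TAHRE antisense and 1 each for TAHRE sense and TART sense, and scaling to repeats with rRNA moved 1 for TART_B1 sense.

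Summed over TART and TART_B1, the antisense share differed by 10.8 points in piwi and 4.98 points in aub against WT sperm. In WT sperm against testis the summed difference was 1.42 points. In the same order TART alone differed by 10.9, 5.20 and 2.91 points, and TART_B1 alone by -3.90, -33.5 and -10.5 points. For the summed share in piwi against WT sperm the exact permutation p was 0.1, the smallest that 3 against 3 libraries allow. For TART alone it was 0.2, with overlapping libraries. Leaving out a library, antisense share differences ran from -9.92 to 7.94 points for TART_B1 in piwi against WT sperm, from -2.16 to 4.00 for TAHRE in aub against piwi sperm, and from -5.38 to 12.9 for HETA and -2.23 to 7.22 for TART in WT sperm against testis. The log2 strand ratios likewise ran from -0.27 to 0.56, from -0.12 to 0.23, from -0.32 to 0.93 and from -0.22 to 0.66. HETA sense and TAHRE sense in the vesicle passed in 12 and 11 of 13 alternatives. Counts limit TART_B1 and TAHRE most, with 2 to 17 counts over both strands for TART_B1 in aub and WT sperm libraries.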

Other observations

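HETRP_DM, a repeat row whose name begins like HETA but does not meet the rule for members, was looked at after its values were seen. Its antisense strand had 9.16, 9.09 and 8.25 CPM in piwi sperm and 9.97, 5.41 and 5.32 CPM in aub sperm, against 2.10, 5.75 and 3.15 CPM in WT sperm. In testis T1, T2 and T3 it had 266, 150 and 32.2 CPM. On the sense strand it had no more than 1.99 CPM in any sperm library.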
